A study of Mus musculus with 16 samples.

Results

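The kinesin genes of the array platform were taken by their symbols, Kif or Kifc followed by a number, which gave 39 genes among the 17097 with a probe set that names a single gene. Each gene is represented by its brightest such probe set over all 16 arrays. The cells were naive T lymphocytes sorted from mice on a C57BL\6 background and labelled wild-type or Tsc1-deficient. CD4 cells were measured without stimulation (0 h, 3 arrays per genotype) and after culture for 4 h in Click medium on immobilised anti-CD3 and anti-CD28 antibodies, which mimic antigen and costimulation (3 arrays per genotype). CD8 cells were measured without stimulation (2 arrays per genotype). Tsc1 is part of the TSC complex, which restrains mTORC1, a kinase complex that drives cell growth, and the design asks how its loss alters quiescent T cells and their first response to activation. The sources used here do not give the Cre driver or promoter behind the deficiency. Whether the arrays of a group came from separate mice is not stated in the labels, so the p-values reflect spread between arrays that may be purely technical.

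Values are log2 signals, in which a difference of 1 is a doubling. The median of the whole table was 3.36, and it serves below as a mark for dim signals, since a probe set below it may reflect little specific hybridisation. The targeted gene, Tsc1, read 6.42 to 6.54 in deficient against 7.25 to 7.39 in wild-type unstimulated CD4 cells, with log2 differences of -0.83 there, -1.06 at 4 h and -0.55 in CD8 cells. T cell markers had a mean log2 signal of 9.8 to 10.9 on all 16 arrays. Cd8a read 11.34 to 11.68 on CD8 arrays and 4.35 to 6.99 on CD4 arrays, and Cd4 read 3.95 to 5.13 and 7.25 to 9.04 on them, but Cd8b1 was well above the table median on the CD4 arrays too (6.14 to 8.67). Of 3 CD8 markers, Cd8a (-0.84) and Runx3 (-0.55) were called lower in unstimulated Tsc1-deficient CD4 cells, and their part in the results there was not tested. Immature thymocyte markers had 0 of 5 called by limma for genotype (0, 2 and 0 at an unadjusted p under 0.05 in unstimulated CD4, stimulated CD4 and CD8 cells), with Rag1, Rag2 and Ptcra below the table median on every array, and erythroid markers 0 of 4 (1, 0 and 0). Of all 17097 genes, 3007, 3639 and 3318 were under that unadjusted p in the same order. The other thymocyte markers were brighter, Cd1d1 at 8.19 to 8.79 and Dntt at 4.40 to 5.67 on the unstimulated arrays. Of the erythroid markers, Hba-a1 read 6.94 to 9.87 over all arrays. Its genotype differences were 0.76, 1.11 and 0.83 in the same order of comparisons, not called. NK markers had 2 called higher and 1 lower of 6 in unstimulated CD4 cells and 1 higher in each of the other comparisons, B cell markers 1 of 5 called in both unstimulated comparisons, and myeloid markers 1 of 6 at 4 h. Naive T cell markers, of which 3 of 7 were measured, had 3 of 3 called lower in stimulated Tsc1-deficient CD4 cells (median -0.83, down to -1.28) and 0 by limma in the other genotype comparisons (1 at an unadjusted p under 0.05 in unstimulated CD4 cells and 0 in CD8 cells). Of 8 neutrophil markers, 1 was called higher in unstimulated and 4 in stimulated Tsc1-deficient CD4 cells and 0 by limma in CD8 cells (4 at an unadjusted p under 0.05), their summed linear signal per array was 283.5 to 1288 in unstimulated Tsc1-deficient against 104.7 to 275.3 in wild-type CD4 cells, 360.1 to 1203 against 79.1 to 137.6 at 4 h, and 406.8 to 897.5 against 113.8 to 323.5 in CD8 cells, while Elane stayed below the table median on every array. In bulk samples, more cells of a type and more RNA per cell cannot be told apart. Gapdh 3' and 5' control probe sets differed by 0.96 on replicate 1 of stimulated Tsc1-deficient CD4 cells and by 0.64 on replicate 2 of Tsc1-deficient CD8 cells, against 0.02 to 0.40 on the other arrays, and values without both arrays are given where they matter.

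Kinesins are motor proteins that use ATP to move along microtubules or to take microtubules apart. One set builds and runs the mitotic spindle: its members separate the spindle poles, align chromosomes, assemble the midzone and finish cytokinesis, and their transcripts are typically made in cells that are in or near division. Another set carries cargo such as mitochondria, endosomes and ciliary components, in dividing and resting cells alike. Naive T cells are quiescent, so the mitotic set is ordinarily low in them, whereas transport motors and their microtubule tracks serve the polarisation of the cell towards an antigen-presenting partner. By these textbook roles the 39 genes were placed as 11 mitotic kinesins, 15 transport kinesins and 13 others. Kif2a and Kif2b were counted among the others and their relative Kif2c among the mitotic kinesins, and the class counts below depend on such choices.

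A short promoter motif was found in some mitotic kinesins and in none of the transport kinesins whose first listed window was searched. Many genes of mitosis carry a cell cycle homology region (TTTGAA) near the start site, often with a CCAAT box upstream, the binding site of NF-Y. Of the 39 genes, 31 had a RefSeq promoter window (assembly GRCm38.p6), of which the 250 bases before the start were searched on both strands, the first listed window being used where a gene has several. TTTGAA occurred in 5 of 10 mitotic (Kif11, Kif14, Kif15, Kif22 and Kif2c), 2 of 11 other and 0 of 10 transport kinesins, and in 16.3% of all genes' windows. CCAAT occurred in 6 of 10, 5 of 11 and 3 of 10, and in 34.5% of all windows. CACGTG, the E-box that Myc and the mTORC1-regulated TFEB family can bind, occurred in none of these 31 windows and in 6.05% of all. A further listed window of Kif1a, not counted, holds both TTTGAA and CACGTG. The windows of the 4 kinesins called higher in Tsc1-deficient CD8 cells are shown 5' to 3' on the gene's own strand, ending at the base before the start, with TTTGAA and CCAAT in capitals. On the opposite strand these read TTCAAA and ATTGG, and no copies of them overlap here. The windows are chr19:37376132-37376381 (+) for Kif11, chr7:127042421-127042670 (-) for Kif22, chr9:61946800-61947049 (-) for Kif23 and chr11:53567119-53567368 (+) for Kif3a.
Kif11: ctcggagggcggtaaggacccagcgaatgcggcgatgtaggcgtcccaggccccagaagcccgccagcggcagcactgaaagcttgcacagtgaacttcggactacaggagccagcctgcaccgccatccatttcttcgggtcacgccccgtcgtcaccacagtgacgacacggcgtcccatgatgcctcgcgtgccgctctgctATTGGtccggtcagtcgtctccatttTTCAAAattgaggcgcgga
Kif22: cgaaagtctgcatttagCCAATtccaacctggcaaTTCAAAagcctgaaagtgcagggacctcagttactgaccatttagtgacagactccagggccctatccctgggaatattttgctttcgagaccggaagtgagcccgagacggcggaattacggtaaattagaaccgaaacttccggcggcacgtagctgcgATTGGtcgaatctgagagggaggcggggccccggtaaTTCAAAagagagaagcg
Kif23: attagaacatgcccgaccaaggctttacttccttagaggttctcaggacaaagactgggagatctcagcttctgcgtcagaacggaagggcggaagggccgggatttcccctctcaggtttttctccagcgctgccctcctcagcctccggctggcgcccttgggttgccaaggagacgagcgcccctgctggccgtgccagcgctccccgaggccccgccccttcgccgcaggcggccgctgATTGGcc
Kif3a: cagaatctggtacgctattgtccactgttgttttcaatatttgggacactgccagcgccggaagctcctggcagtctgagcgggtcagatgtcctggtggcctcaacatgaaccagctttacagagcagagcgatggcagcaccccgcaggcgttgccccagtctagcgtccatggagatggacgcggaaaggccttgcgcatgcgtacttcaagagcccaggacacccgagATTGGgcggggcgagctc
In Kif11 the TTTGAA begins 19 bases before the start and the CCAAT 45 bases before it. Kif22 has the same arrangement at 17 and 54 bases, with further copies at 215 and 233. Kif23 and Kif3a have a CCAAT at 7 and 18 bases and no TTTGAA. A match is a description of letters and not evidence that a factor binds.

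Transport motors gave the brighter signals as a class, and most mitotic motors were dim. Group means lay above the table median in every group for 10 of 15 transport kinesins (66.7%), 4 of 13 others (30.8%) and 2 of 11 mitotic kinesins (18.2%), against 51.0% of all genes. Probe sets differ in how well they hybridise, so these shares describe signal and not transcript number. The 10 transport genes were Kif5b, Kif1b, Kif3b, Kif13b, Kif3c, Kif3a, Kif16b, Kifc2, Kif1c and Kif17. The 2 mitotic genes were Kif20b and Kif22, and 4 more, Kif23, Kif11, Kif18b and Kif18a, were above it in some groups. The other 5, Kif20a, Kif4, Kif15, Kif2c and Kif14, stayed below it in every group. Among the others, Kif21b, Kif2a, Kif24 and Kif7 lay above it throughout, and the remaining 9 were below it in every group.

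**Figure D1:**
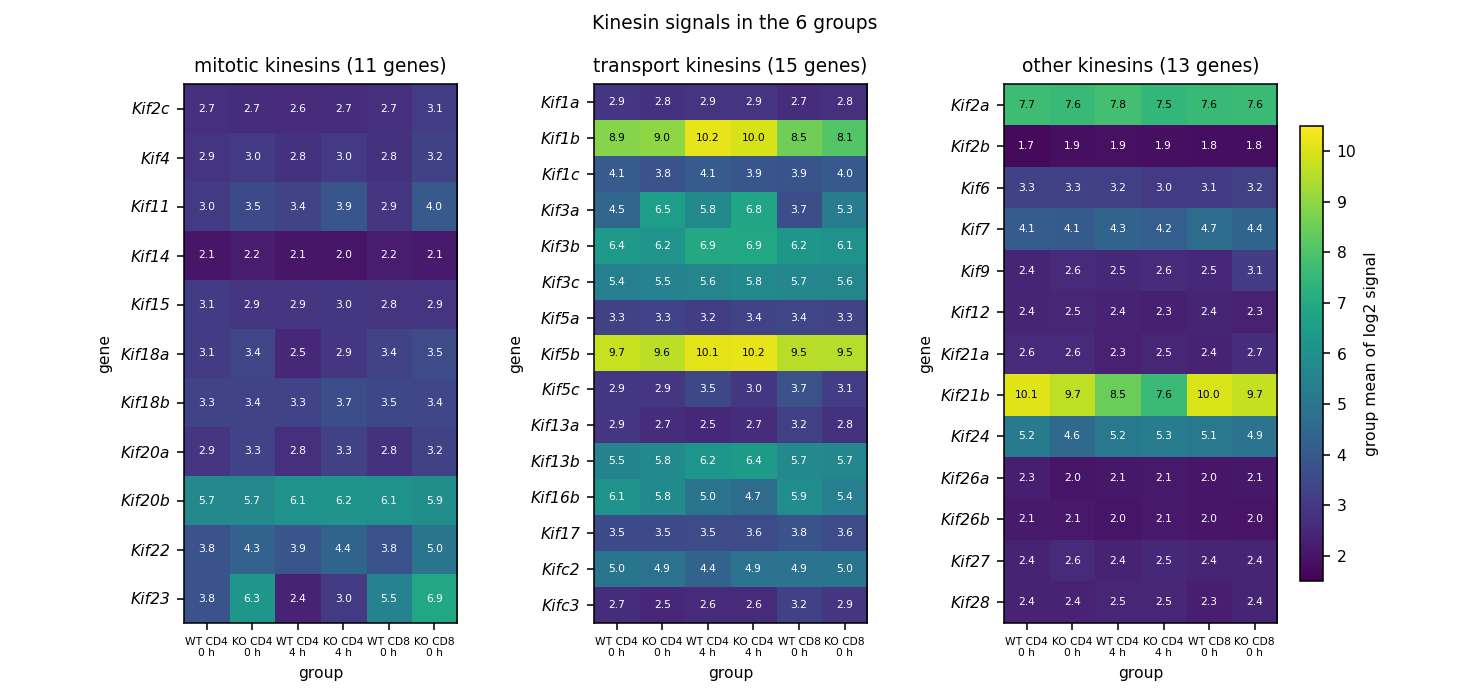
Group mean log2 signal of each of the 39 kinesin genes (rows) in the 6 groups (columns; WT, wild-type; KO, Tsc1-deficient), in panels for mitotic, transport and other kinesins, with the mean printed in each cell. Kif5b, Kif1b and Kif21b are bright in every group, most mitotic kinesins are near or below the table median of 3.36, and Kif23 and Kif3a differ most between groups.

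In unstimulated CD4 cells, loss of Tsc1 went with a rise of a single mitotic kinesin, Kif23, and a single transport kinesin, Kif3a. The other 37 kinesins did not pass the test. Kif23 encodes MKLP1, which with Racgap1 forms centralspindlin, the complex that bundles microtubules at the spindle midzone and recruits the cytokinesis machinery. Its signal was 6.48, 6.29 and 6.03 in Tsc1-deficient cells and 3.88, 3.66 and 3.83 in wild-type cells. Every deficient array lay above every wild-type array, and the wild-type arrays were only just over the table median. The log2 difference was 2.47 ± 0.26 (SE; 5.56-fold, limma, adjusted p = 1.17e-05). Called higher was thus 1 of 11 mitotic kinesins, where 3.96% of all genes were called higher and 1.87% lower, 5.83% in all. The median difference of the 11 was 0.14, with 9 of 11 positive, against 0.01 over all genes, of which 8976 of 17097 were positive.

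Several mitotic kinesins had higher means in the deficient cells without passing the test. Kif22, a chromokinesin that pushes chromosome arms towards the spindle equator, read 4.25, 4.37 and 4.40 against 3.74, 3.79 and 3.84, which do not overlap (difference 0.55 ± 0.17, adjusted p = 0.0765). Its dimmer probe set gave 0.78 and was called when every probe set was tested. Kif11, the motor that separates the spindle poles, read 3.75, 3.78 and 2.98 against 3.15, 2.87 and 3.05, which overlap (0.48 ± 0.21, adjusted p = 0.223). Without its low deficient array, replicate 3, it was called (0.74, adjusted p = 0.0321), and the mitotic count became 2. The dimmer probe set of Kif11 gave 0.03 over all arrays, not called. Kif20a, which brings the chromosomal passenger complex to the midzone, read 3.24, 3.38 and 3.34 against 2.77, 2.80 and 3.16 (0.41 ± 0.20, adjusted p = 0.307), close to the table median. Non-overlapping arrays were found for 4 of 11 mitotic kinesins and for 28.6% of all genes, so such separation by itself was common. Kif20b, a cytokinesis motor, was level at 5.63, 5.73 and 5.86 against 5.66, 5.75 and 5.76.

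The rise of Kif23 rests on 1 of its 2 probe sets. The dimmer one stayed below the table median in all 6 groups, between 2.63 and 2.91 in group means, and its difference for genotype was -0.11 in unstimulated CD4 cells, -0.03 at 4 h and -0.01 in CD8 cells. A probe set this dim may not report the transcript, and which set does was not tested. Among the 3 unstimulated Tsc1-deficient CD4 arrays, Kif23 was lowest (6.03) on the array where the neutrophil marker S100a8 was highest (8.53). The same held for the Tsc1-deficient CD8 arrays, with Kif23 at 6.55 and S100a8 at 8.15 on one and 7.23 and 6.95 on the other. The wild-type CD8 arrays had the same order (Kif23 5.36 with S100a8 6.66, and 5.65 with 4.63). In wild-type unstimulated CD4 cells, however, Kif23 was lowest (3.66) where S100a8 was lowest (4.81). Both genes had higher means in deficient than in wild-type unstimulated cells of both lineages. The part of neutrophil RNA in the Kif23 result was not tested.

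**Figure D2:**
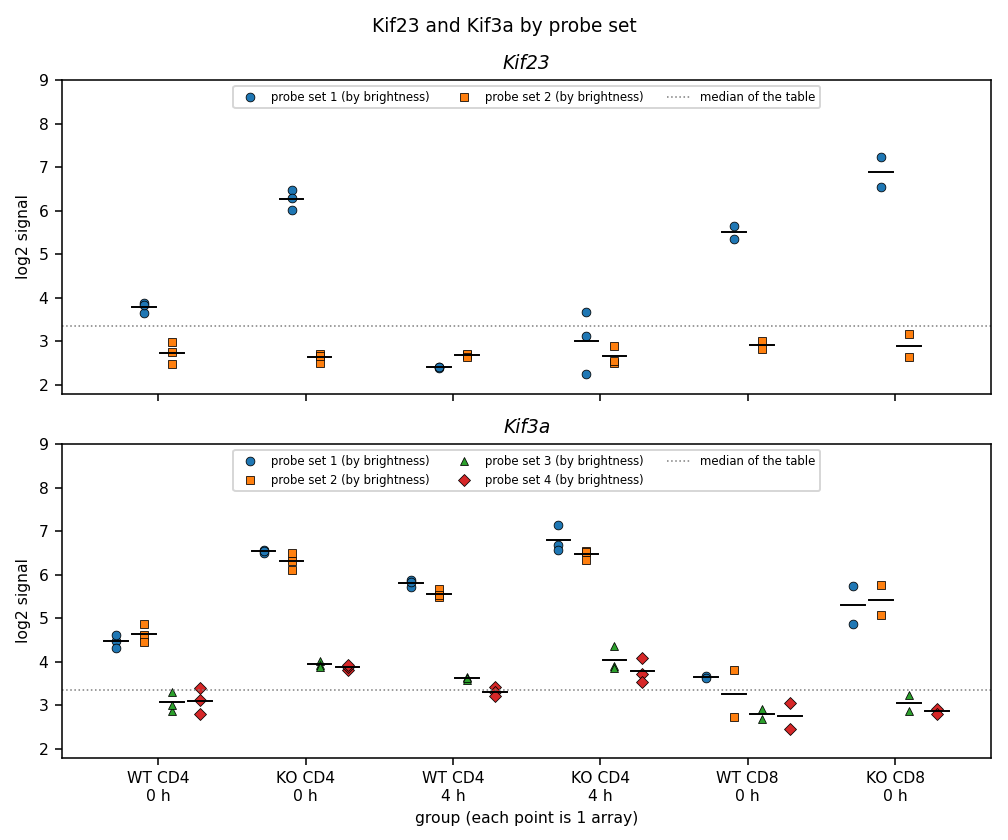
Log2 signal on each array (points) for the 2 probe sets of Kif23 and the 4 of Kif3a, numbered by brightness, in the 6 groups (WT, wild-type; KO, Tsc1-deficient); bars are group means and the dotted line is the table median of 3.36. Kif23 differs between groups by its brighter set alone, while all 4 sets of Kif3a are higher in Tsc1-deficient than in wild-type unstimulated CD4 cells.

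Kif3a is the motor subunit that pairs with Kif3b or Kif3c and binds cargo through Kifap3, and it is best known from transport inside cilia. Its signal was 6.57, 6.51 and 6.54 in unstimulated Tsc1-deficient CD4 cells and 4.49, 4.61 and 4.31 in wild-type cells. The groups were far apart relative to their spread, with a difference of 2.07 ± 0.18 (4.19-fold, adjusted p = 2.03e-06). All 4 of its probe sets were called higher when every probe set was tested, by 2.07, 1.66, 0.88 and 0.77. None of its partners was called. Kif3b read 6.09, 6.03 and 6.45 against 6.27, 6.49 and 6.31, Kif3c read 5.49, 5.44 and 5.59 against 5.55, 5.46 and 5.14, and Kifap3 differed by -0.12 ± 0.15 (adjusted p = 0.781). Kif3a was 1 of 15 transport kinesins called, and the median of the 15 was -0.09.

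After 4 h of stimulation the genotype difference of Kif3a remained but was smaller, and 0 of 11 mitotic kinesins were called by limma, where 5.59% of all genes were called higher and 3.86% lower, 9.45% in all. At an unadjusted p under 0.05 were 6 of the 11 and 3639 of all 17097 genes. Kif3a read 6.68, 6.56 and 7.15 in Tsc1-deficient and 5.87, 5.72 and 5.82 in wild-type cells, a difference of 0.99 ± 0.18 (adjusted p = 0.00167). Kif23 read 2.24, 3.68 and 3.12 against 2.42, 2.39 and 2.42, so the lowest and the highest array both belonged to the deficient cells (0.60 ± 0.26, adjusted p = 0.173). The lowest of these is the array with the wide Gapdh difference, and without it Kif23 was called (0.99, adjusted p = 0.00477). Without wild-type replicate 1, Kif22 was called (0.68, adjusted p = 0.0357). Leaving out both arrays with wide Gapdh differences gave 2 mitotic calls, Kif23 and Kif11 (0.66, adjusted p = 0.0488). Kif11 read 3.74, 4.04 and 3.98 against 3.22, 3.44 and 3.39 (0.57 ± 0.21, adjusted p = 0.103), and Kif22 read 4.32, 4.34 and 4.52 against 4.15, 3.89 and 3.54 (0.53 ± 0.17, adjusted p = 0.0644). Neither pair of groups overlaps, which held for 5 of 11 mitotic kinesins and for 23.9% of all genes. The dimmer probe set of Kif11 gave -0.06, not called. The median difference of the 11 mitotic kinesins was 0.35 with 10 of 11 positive, where 8519 of 17097 genes were positive. The median over all genes was within 0.02 of 0 in each genotype and stimulation comparison.

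Of the transport kinesins, 2 of 15 were called higher and 0 lower in stimulated Tsc1-deficient CD4 cells. Besides Kif3a this was Kifc2, a motor that walks towards microtubule minus ends, at 5.33, 4.74 and 4.70 against 4.44, 4.48 and 4.14 (0.57 ± 0.16, adjusted p = 0.0278). Its highest value is on the array with the wide Gapdh difference, and without both such arrays the call was lost (0.37, adjusted p = 0.106), as it was without wild-type replicate 1 or 3 (adjusted p = 0.0538 and 0.133) or without Tsc1-deficient replicate 1 alone (adjusted p = 0.11). Of the other kinesins, 1 of 13 was called. Kif21b, a kinesin that limits microtubule growth and has been linked to centrosome movement at the T cell synapse, was lower in the deficient cells at 7.41, 7.64 and 7.87 against 8.62, 8.45 and 8.39 (-0.84 ± 0.13, adjusted p = 0.000401). The same gene was lower at 0 h without passing the test, at 9.61, 9.61 and 9.75 against 9.92, 10.17 and 10.08 (-0.40 ± 0.13, adjusted p = 0.0787). In the stimulated cells 4 of 8 T cell markers and the 3 naive T cell markers were also called lower in the deficient group, and their part in the Kif21b result was not tested. Kif2a, a microtubule depolymerase, read 7.61, 7.36 and 7.42 against 7.85, 7.74 and 7.82 (-0.34 ± 0.11, adjusted p = 0.0564). All 5 of its probe sets were lower there (-0.33 to -0.62), 1 of them called when every probe set was tested. It was called with its probe sets averaged (-0.45, adjusted p = 0.0214) and without Tsc1-deficient replicate 1 (-0.41, adjusted p = 0.0284).

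In CD8 cells 3 mitotic kinesins rose with loss of Tsc1, Kif23, Kif22 and Kif11, together with Kif3a. Called higher were thus 3 of 11 mitotic and 1 of 15 transport kinesins, where 3.64% of all genes were called higher and 2.18% lower, 5.82% in all. Kif23 read 7.23 and 6.55 against 5.65 and 5.36 (1.39 ± 0.31, adjusted p = 0.0142), Kif22 read 5.07 and 4.88 against 4.20 and 3.36 (1.19 ± 0.21, adjusted p = 0.00279), and Kif11 read 4.42 and 3.60 against 2.79 and 3.07 (1.08 ± 0.25, adjusted p = 0.0175). In each case both deficient arrays were above both wild-type arrays, as they were for 46% of all genes. Kif22 was also called by its dimmer probe set (0.72), whereas the dimmer set of Kif11 gave 0.27 and was not called. Without both arrays of wide Gapdh difference the 3 differences were 1.72, 1.28 and 1.49, all called. With Tsc1-deficient replicate 1 left out, Kif23 fell out (1.05, adjusted p = 0.119) and so did Kif11 (0.67, adjusted p = 0.16). Leaving out wild-type replicate 1 (adjusted p = 0.0654 and 0.164) or replicate 2 (adjusted p = 0.116 and 0.0519) also ended the calls of Kif23 and Kif11.

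Kif3a in CD8 cells read 5.74 and 4.88 in Tsc1-deficient and 3.68 and 3.63 in wild-type cells, a difference of 1.65 ± 0.22 (adjusted p = 0.00022). Its second brightest probe set gave 2.15 and was called, and the remaining dim sets gave 0.25 and 0.12. Kif16b, which moves early endosomes, had lower means in the deficient cells of every condition without a call, by -0.35 in unstimulated and -0.31 in stimulated CD4 cells and by -0.57 in CD8 cells (adjusted p = 0.0657). Its CD8 values were 5.60 and 5.10 against 6.00 and 5.85, and its dimmer probe set was called lower there (-0.85). Without Tsc1-deficient CD8 replicate 1 the brighter set was called too (-0.82, adjusted p = 0.0202). The difference of the genotype effects between CD8 and CD4 cells was called by limma for 0 of the 39 kinesins, against 0.117% of all genes. At an unadjusted p under 0.05 were 4 of the 39 kinesins and 1328 of all 17097 genes. A call in one lineage and not the other is therefore not shown to be a difference between them. The nearest was Kif23, at -1.09 ± 0.40 (unadjusted 95% interval -1.94 to -0.23, adjusted p = 0.561).

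**Figure D3:**
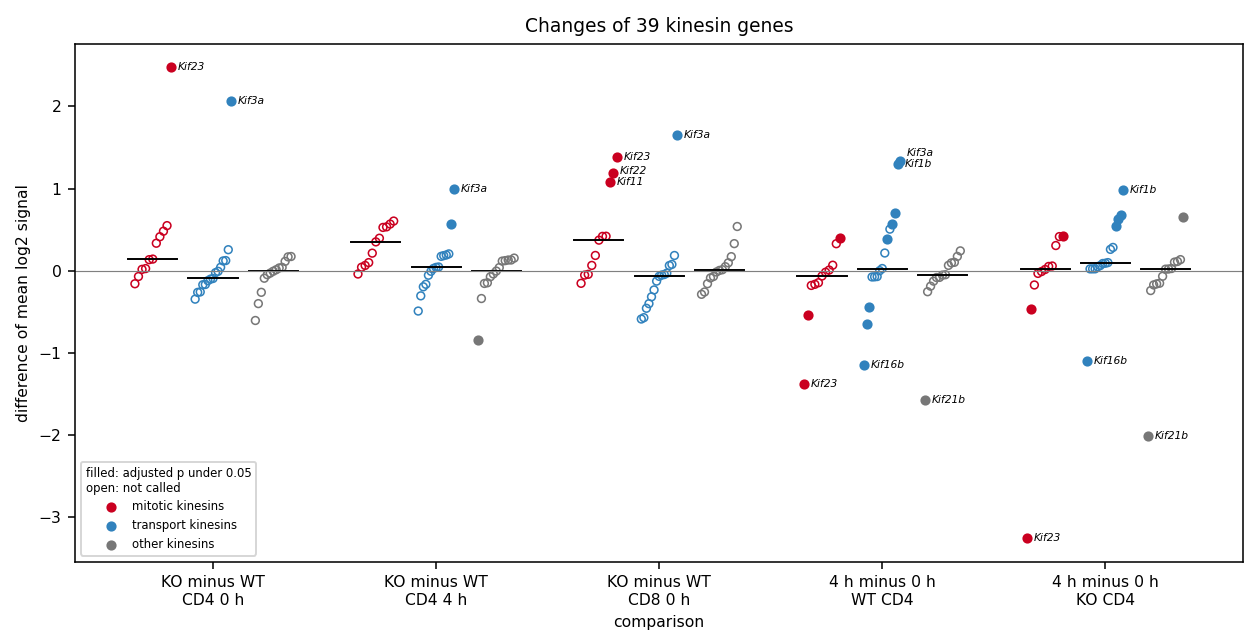
Difference of mean log2 signal for each of the 39 kinesin genes (points) in 5 comparisons, coloured by class, with filled points for adjusted p under 0.05 and a bar at the class median (WT, wild-type; KO, Tsc1-deficient; names are given for called differences over 0.9 in size). Genotype calls are few and mostly upward, led by Kif23 and Kif3a, and stimulation calls fall on both sides of 0.

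Other spindle and cytokinesis genes were called higher in the Tsc1-deficient cells of every condition. The 30 measured partners were kinetochore, passenger complex, midzone and mitotic cyclin genes, with further cell cycle genes such as Mki67, Top2a, Foxm1 and Ube2c. Of these 30, 11 were called higher and 0 lower in unstimulated CD4 cells, 18 and 0 after stimulation, and 17 and 0 in the CD8 comparison, where 3.96%, 5.59% and 3.64% of all genes were called higher. Their median differences were 0.49, 0.52 and 0.72. These lists were chosen with earlier results known and hold cell cycle genes by design. The proliferation antigen Mki67 read 5.76, 5.84 and 5.43 against 3.84, 3.97 and 4.17 in unstimulated CD4 cells, with no overlap, and its differences were 1.68, 2.26 and 2.99 in the 3 conditions. Ube2c, a ubiquitin-conjugating enzyme that works with the anaphase-promoting complex, rose by 1.90, 1.96 and 2.39, and Birc5, the survivin subunit of the passenger complex, by 1.62, 1.49 and 2.40. The neutrophil markers described above moved in the same direction as this group, and their part in it was not tested.

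Direct relatives and partners of the mitotic kinesins were less uniform. Cenpe, the kinetochore kinesin whose symbol lies outside the family pattern, read 3.98 and 3.77 in Tsc1-deficient CD8 cells against at most 3.07 in wild-type ones (0.84 ± 0.15, adjusted p = 0.00259) and was also called in stimulated CD4 cells (0.48, adjusted p = 0.0182). In unstimulated CD4 cells it was not called (0.39, adjusted p = 0.0703). Prc1, which crosslinks midzone microtubules and recruits Kif4, was called at 4 h, at 5.20, 5.21 and 4.71 against 3.95, 3.97 and 3.93 (1.09 ± 0.15, adjusted p = 0.000194), with 0.39 and 0.40, not called, in the unstimulated CD4 and CD8 comparisons. Its dimmer probe set gave 0.34, 0.96 and 0.64 in unstimulated CD4, stimulated CD4 and CD8 cells, the last 2 called when every probe set was tested. The group means of Kif4 itself stayed below the table median, with differences of 0.13, 0.21 and 0.42 and no call. Racgap1, the partner of Kif23, was called at 4 h (0.89, adjusted p = 0.00615) and not at 0 h (0.55, adjusted p = 0.113) or in CD8 cells (0.31, adjusted p = 0.526). Its dimmer probe set gave 1.09 at 0 h, called when every probe set was tested, and 0.44 at 4 h, not called, so the calls of its sets differ by time.

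**Figure D4:**
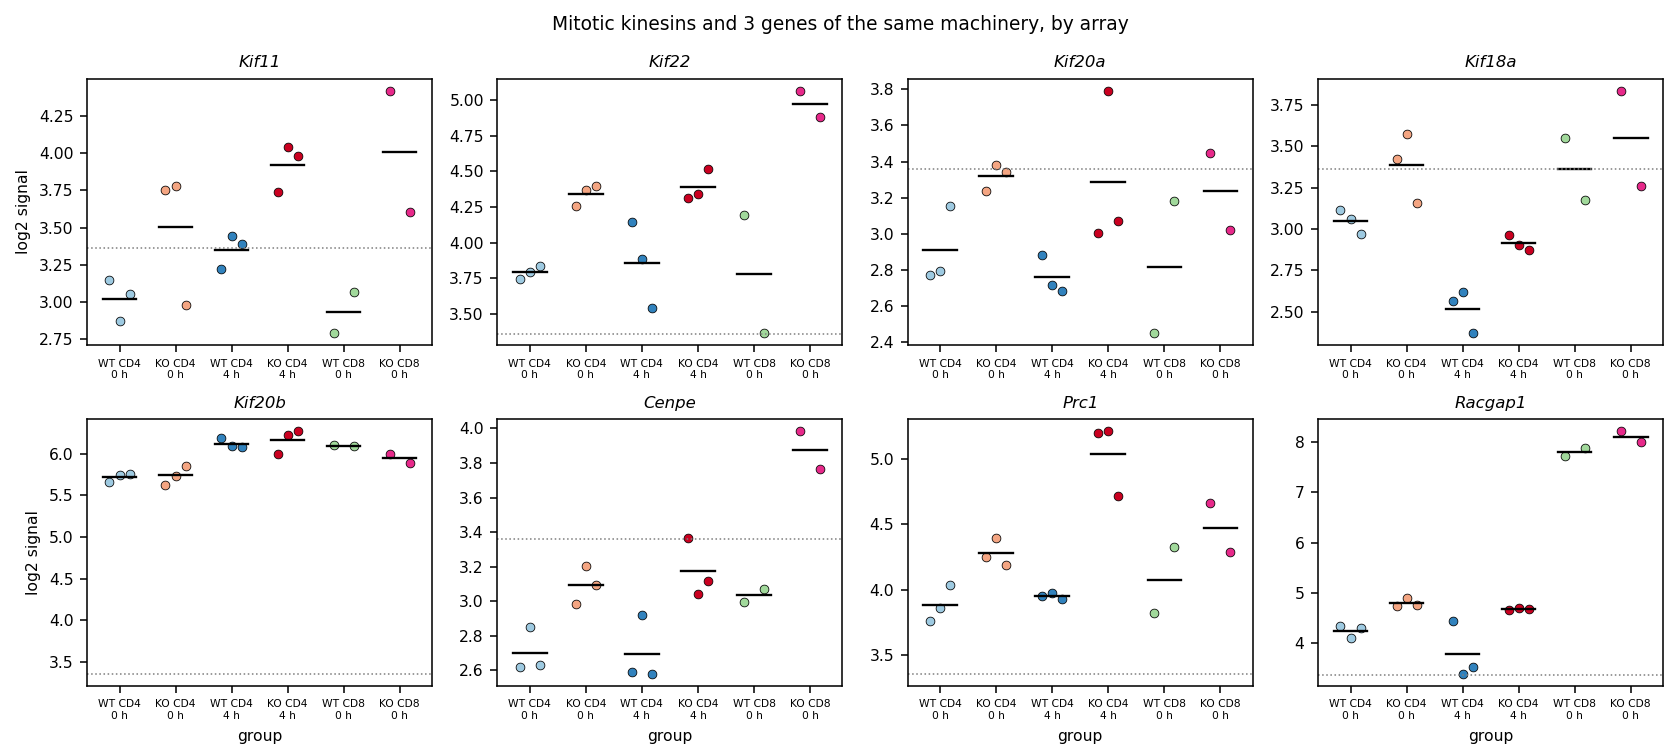
Log2 signal on each array (points) with group means (bars) for 5 mitotic kinesins and 3 genes of the same machinery in the 6 groups (WT, wild-type; KO, Tsc1-deficient); the dotted line is the table median of 3.36 and each panel has its own vertical range, which does not start at 0. Kif11, Kif22 and Cenpe sit highest in Tsc1-deficient CD8 cells, Kif20b moves by less than 1 unit throughout, and Racgap1 is near 8 in CD8 and below 5 in CD4 cells.

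After stimulation for 4 h, transport kinesins were called in both directions. No group was cultured for 4 h without the antibodies. Effects of culture and of stimulation therefore cannot be told apart in any comparison of 4 h with 0 h. In wild-type CD4 cells 5 of 15 transport kinesins rose and 3 fell, where 12.8% of all genes rose and 19.1% fell, so the share that changed was 8 of 15 against 31.9%. In Tsc1-deficient cells 4 rose and 1 fell, where 13.8% of all genes rose and 21.5% fell, 5 of 15 against 35.3%, which is near the share of all genes. Transport kinesins were also brighter than genes in general (66.7% against 51.0% above the table median in every group), and the shares were not adjusted for this. Arrays of the compared groups did not overlap for 9 of 15 transport kinesins in wild-type and 5 of 15 in deficient cells, against 45.3% and 43.4% of all genes. Both comparisons use the unstimulated arrays that also enter the genotype comparison. Many cell type markers were called lower in them too. In wild-type cells these were 3 of 3 CD8, 3 of 3 CD4 and 4 of 5 B cell markers. They also included 4 of 6 myeloid, 3 of 6 NK and 5 of 8 T cell markers. In the same cells 1 T cell and 1 naive T cell marker rose. The counts called lower in deficient cells were 3, 2, 3, 4, 4 and 6. The part of these markers in the falls of kinesins was not tested.

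Motors of mitochondria and vesicles were among those that rose. Kif5b, the ubiquitous conventional kinesin heavy chain, went from 9.66, 9.81 and 9.75 to 10.17, 10.10 and 10.10 in wild-type cells (0.38 ± 0.09, adjusted p = 0.00413) and by 0.55 in deficient cells. Kif1b, a motor for mitochondria and vesicle precursors, went from 9.07, 8.82 and 8.71 to 10.26, 10.00 and 10.24 (1.30 ± 0.16, adjusted p = 3.96e-06) and by 0.98 in deficient cells. In both genes and both genotypes every stimulated array was above every unstimulated one. All 5 probe sets of Kif1b were called higher in wild-type cells, by 0.50 to 1.69, and for Kif5b 2 of 5 were called, with all 5 positive. Kif13b, a vesicle motor that binds the scaffold Dlg1, rose by 0.70 ± 0.14 (adjusted p = 0.000567), from 5.55, 5.52 and 5.48 to 6.29, 6.20 and 6.17, and by 0.63 in deficient cells, although its 4 probe sets differ in sign in wild-type cells (-0.29 to 1.12).

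The kinesin-2 subunits rose unequally. Kif3b went from 6.27, 6.49 and 6.31 to 6.92, 6.81 and 7.04 in wild-type cells (0.57 ± 0.15, adjusted p = 0.00776) and by 0.68 in deficient cells, and 1 of its 4 probe sets carried the call. Kif3a rose by 1.33 ± 0.18 (adjusted p = 1.24e-05) in wild-type cells, 3 of 4 probe sets being called. In Tsc1-deficient cells, where it was already at 6.57, 6.51 and 6.54 before stimulation, its difference was 0.26 ± 0.18 (adjusted p = 0.31) and the arrays overlapped. The difference between the genotype effects at 4 h and 0 h was -1.07 ± 0.25 (adjusted p = 0.0488), where 1.2% of all genes were called. That call sits at the threshold, and leaving out any of 11 of the 12 CD4 arrays ended it, with adjusted p up to 0.122.

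Fewer transport kinesins fell. Kif16b went from 6.36, 6.15 and 5.85 to 5.08, 5.01 and 4.85 in wild-type cells (-1.14 ± 0.14, adjusted p = 5.87e-06) and fell by 1.10 in deficient cells, both of its probe sets being called in each. Kifc2 fell in wild-type cells, from 4.94, 5.22 and 4.86 to 4.44, 4.48 and 4.14 (-0.65 ± 0.16, adjusted p = 0.0032), and its difference in deficient cells was 0.02. The interaction for Kifc2 was 0.67 ± 0.22 and not called (adjusted p = 0.188). The third was Kif13a (-0.44), which lay below the table median in both groups, lost its call without any of 4 arrays (adjusted p up to 0.153) and is named here after its value was seen, being outside the rule for named genes.

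Of 25 measured transport partners (light chains, adaptors, dynein and dynactin genes), 10 rose and 5 fell in wild-type and 12 rose and 5 fell in deficient cells, where 12.8% and 13.8% of all genes rose and 19.1% and 21.5% fell. Hook3, a dynein adaptor, rose by 1.12 and 1.23, and Dctn4 of dynactin by 0.83 and 1.05. All 3 probe sets of Hook3 were called higher, whereas for Dctn4 5 of 6 were positive and 1 was called lower in both genotypes (-0.73 and -0.62). Rhot2, a mitochondrial GTPase that anchors kinesin through Trak adaptors, fell by 1.33 and 1.38. Among kinesin light chains, which link Kif5 heavy chains to cargo, Klc1 gave conflicting signs. Its brightest probe set was called higher by 0.38 and 0.36, the next was called lower when every probe set was tested (-0.35, adjusted p = 0.0271, and -0.41, adjusted p = 0.0096), and the dimmest gave 0.17 and -0.09. Klc3 and Klc4 were not called. For genotype these 25 genes gave 0 calls in unstimulated CD4 cells by limma (5 at an unadjusted p under 0.05), 1 higher and 1 lower at 4 h (Dynll1 0.44 and Klc1 -0.34) and 1 higher in CD8 cells (Dynll2 0.50). Of all genes 5.83%, 9.45% and 5.82% were called in these comparisons. In the first of them 3007 of 17097 genes were under that unadjusted p.

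**Figure D5:**
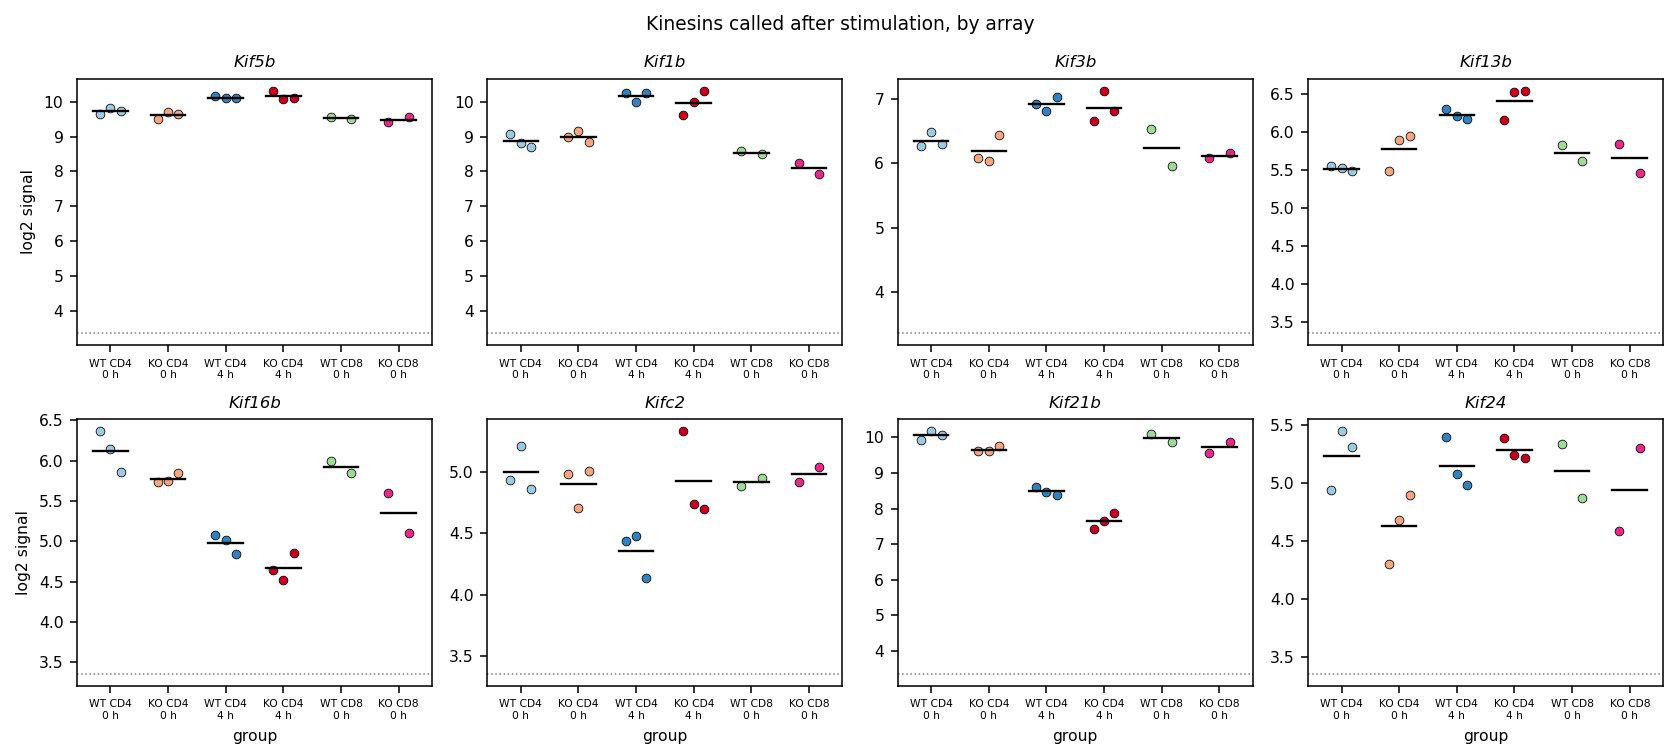
Log2 signal on each array (points) with group means (bars) for 6 transport kinesins and for Kif21b and Kif24 in the 6 groups (WT, wild-type; KO, Tsc1-deficient); the dotted line is the table median of 3.36 and each panel has its own vertical range, which does not start at 0. Kif5b, Kif1b, Kif3b and Kif13b are higher and Kif16b and Kif21b lower at 4 h than at 0 h in both genotypes.

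Of the 11 mitotic kinesins 1 rose and 2 fell in each genotype after stimulation, and they were the same 3 genes, so the share called was 3 of 11 against 31.9% of all genes in wild-type and 35.3% in deficient cells. Kif20b rose from 5.66, 5.75 and 5.76 to 6.19, 6.09 and 6.08 in wild-type cells (0.40 ± 0.10, adjusted p = 0.00335) and by 0.42 in deficient cells, and its dimmer probe set gave 0.29 and 0.43, not called. Kif23 fell from 3.88, 3.66 and 3.83 to 2.42, 2.39 and 2.42 in wild-type cells (-1.38 ± 0.26, adjusted p = 0.00035). In deficient cells it went from 6.48, 6.29 and 6.03 to 2.24, 3.68 and 3.12 (-3.25 ± 0.26, adjusted p = 2.2e-08), and without both arrays of wide Gapdh difference the difference was -2.87 (adjusted p = 1.37e-08). The genotype effect on Kif23 was smaller at 4 h than at 0 h by 1.87 (difference of effects -1.87 ± 0.36, adjusted p = 0.0168), and leaving out wild-type 0 h replicate 2 (adjusted p = 0.0526) or Tsc1-deficient 0 h replicate 1 (adjusted p = 0.0506) ended that call. After 4 h Kif23 was below the table median on every CD4 array except Tsc1-deficient replicate 2. Kif18a, which shortens microtubules to align chromosomes, fell by 0.53 in wild-type and by 0.47 in deficient cells (adjusted p = 0.00776 and 0.0152), all near or below the table median, and its dimmer probe set gave -0.13 and 0.06, not called. Without Tsc1-deficient 0 h replicate 2 the latter call was lost (-0.38, adjusted p = 0.0847). Kif11 differed by 0.33 in wild-type and 0.42 in deficient cells, not called. Its dimmer probe set gave 0.56 and 0.46, the former called when every probe set was tested. With its probe sets averaged Kif11 was called higher in both genotypes (0.44 in each, adjusted p = 0.0242 and 0.0232).

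Few spindle partners changed at this time. The median difference after stimulation was -0.06 and 0.02 for the 11 mitotic kinesins in wild-type and deficient cells, and -0.05 and 0.02 for the 30 partners. Of these partners 3 rose and 2 fell in wild-type and 4 rose and 2 fell in deficient cells, 5 and 6 of 30 against 31.9% and 35.3% of all genes. Cdca8, a passenger complex subunit, rose by 1.06 and 1.22, Ndc80 of the kinetochore rose by 1.42 in wild-type cells, and Mki67 fell by 0.71 in wild-type cells.

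Among the 13 other kinesins Kif21b fell in both genotypes. It went from 9.92, 10.17 and 10.08 to 8.62, 8.45 and 8.39 in wild-type cells (-1.57 ± 0.13, adjusted p = 4.09e-08) and from 9.61, 9.61 and 9.75 to 7.41, 7.64 and 7.87 in Tsc1-deficient cells (-2.01 ± 0.13, adjusted p = 1.74e-09). The groups were clearly apart. The larger fall in deficient cells was not called as a difference of effects (-0.44 ± 0.18, adjusted p = 0.318). Kif24, a centriolar kinesin that restrains cilium formation, went from 4.30, 4.69 and 4.89 to 5.39, 5.24 and 5.21 in deficient cells (0.65 ± 0.20, adjusted p = 0.0133), by 1 of its 3 probe sets, a call lost without Tsc1-deficient 0 h replicate 1 (0.49, adjusted p = 0.0845), and from 4.94, 5.44 and 5.31 to 5.39, 5.08 and 4.98 in wild-type cells (-0.08). The remaining 11 of the 13 were not called for stimulation in either genotype. They include Kif2a and the Hedgehog pathway kinesin Kif7, with Kif2a differing by 0.10 in wild-type and -0.15 in deficient cells. In wild-type cells the 5 probe sets of Kif2a were all positive (0.10 to 0.82, 1 called when every probe set was tested), and their average was called (0.45, adjusted p = 0.00557).

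Between the unstimulated lineages, 3 kinesins differed in wild-type cells and 2 in Tsc1-deficient cells, where 5.04% and 6.68% of all genes were called. Kif23 was higher in wild-type CD8 cells (5.65 and 5.36) than in wild-type CD4 cells (3.88, 3.66 and 3.83), by 1.72 ± 0.29 (adjusted p = 0.00115). Its partner Racgap1 also stood higher in CD8 cells, at 7.71 and 7.87 against 4.34, 4.10 and 4.31 (3.54, adjusted p = 9.01e-09), and by 3.31 in deficient cells, and both of its probe sets were higher there. Of the 30 spindle partners, 2 were called higher in wild-type CD8 than CD4 cells and 6 in deficient cells, and Mki67 was not among them in wild-type cells (-0.31, adjusted p = 0.435). In deficient cells the CD8 and CD4 arrays of Kif23 were also apart but not called (0.63, adjusted p = 0.233), and without both arrays of wide Gapdh difference it was called (0.97, adjusted p = 0.0148).

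Kif3a showed the opposite order. It was lower in CD8 than in CD4 cells of both genotypes, by -0.81 ± 0.20 in wild-type (adjusted p = 0.0225) and -1.23 ± 0.20 in Tsc1-deficient cells (adjusted p = 0.000784), and all 4 of its probe sets were called in the latter. The wild-type call was lost without either wild-type CD8 array (adjusted p = 0.133 and 0.158) or without wild-type CD4 replicate 1 or 2 (0.0641 and 0.0856). Kif1b was called lower in deficient CD8 cells by its brightest probe set, at 8.25 and 7.92 against 8.98, 9.15 and 8.84 (-0.91 ± 0.17, adjusted p = 0.00363), and without Tsc1-deficient CD8 replicate 2 the value was -0.74 (adjusted p = 0.086). The other 4 probe sets were lower without a call, by -0.08 to -0.67. Kif5c, a heavy chain best known from neurons, was called in wild-type CD8 cells at 4.08 and 3.37 against 2.85, 3.08 and 2.91 (0.78 ± 0.22, adjusted p = 0.0498), a call at the threshold that 10 of 14 alternatives removed, and its other 2 probe sets gave 0.05 and -0.11. Its relatives Kif5a and Kif5b were not called. All 5 probe sets of Kif5b were lower in wild-type CD8 than CD4 cells (-0.21 to -0.48), 1 of them called when every probe set was tested. With its probe sets averaged Kif5b was called there (-0.37, adjusted p = 0.0103).

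The genes not described above gave no call in any of the genotype comparisons. Kif14, Kif15, Kif2c, Kif18b, Kif1a, Kif1c, Kif5a, Kif17 and Kifc3 were also without a call for stimulation, as were Kif2b, Kif6, Kif9, Kif12, Kif21a, Kif26a, Kif26b, Kif27 and Kif28. Their group means differed by at most 0.75 across the 6 groups (Kifc3, 2.49 to 3.25), and those of Kif1c lay between 3.82 and 4.08. Of the 39 kinesins 23 have several probe sets, and for the 16 with a single set no check between sets exists.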

How the data were processed

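Total RNA from 16 samples was hybridised to 1-colour Affymetrix arrays. The authors deposited log2 signals made with RMA in Partek 6.5, per the submitters' processing notes, and these were used as deposited. No source used here names a genome build. Of 45141 probe sets, 104 are controls, 28898 name a single gene, 551 name several and 15588 have no gene name in the platform table. The brightest single-gene probe set per gene left 17097 genes. All 39 kinesin symbols matched RefSeq by Entrez identifier. Replicate arrays correlated at 0.987 to 0.996, and the number of arrays limits the precision.

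One linear model with a mean for each of 6 groups was fitted with limma 3.58.1 in R 4.3.3 (10 residual degrees of freedom), with Benjamini-Hochberg adjustment over all genes of a comparison. Genes with adjusted p under 0.05 are called. The pipeline was tested on simulated data. The members, classes, partner and marker lists were chosen with earlier results of these data known. Named are kinesins called with non-overlapping arrays and a group mean over the table median, those called for lineage or a difference of effects, their relatives, up to 4 called partners per comparison, and Cenpe, Racgap1, Prc1, Kifap3 and the kinesin light chains throughout. Not all of these partners are printed. One sentence of the labels' treatment text names another deficient strain, and the genotype entries and titles were followed. The alternatives tried were array weights, averaging a gene's probe sets, testing every probe set, leaving out dim genes, quantile normalization, median centring, a robust prior with an intensity trend, the compared groups alone, omission of the arrays with wide Gapdh differences, each array left out and, added after seeing the data, a block of neighbouring title numbers. Python 3.11.15 with matplotlib 3.10.9 drew the figures.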

Additional observations from a re-analysis of the deposited data

Results flagged for a closer look

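The genotype effect on Kif23 differed between stimulated and unstimulated CD4 cells by -1.87 on the log2 scale, tested as a difference of differences. It was 2.47 at 0 h and 0.60 at 4 h, by the brighter of its 2 probe sets. At 4 h Kif23 was below the table median of 3.36 on 5 of the 6 CD4 arrays, with wild-type arrays at 2.39 to 2.42, so the size of the difference of effects rests on dim signals. The genotype effect on Kif3a differed in the same way by -1.07, being 2.07 at 0 h and 0.99 at 4 h.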

How the results depend on the processing

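Of 38 results for named genes, 24 kept their direction and their call under every alternative run, and 537 of 592 single alternatives kept the call, with 0 reversed. Mitotic kinesins called for genotype in unstimulated CD4 cells went from 1 to 2 with probe sets averaged, array weights or the compared groups alone, Kif22 being added. In stimulated CD4 cells they went from 0 to 1 with probe sets averaged or dim genes left out (Kif22), array weights (Kif23) or the compared groups alone (Kif11), and to 2 without the arrays of wide Gapdh difference. Transport kinesins called there went from 2 to 1 with array weights, without those arrays and with the compared groups alone, Kifc2 being lost. In CD8 cells the mitotic count went from 3 to 1 with the compared groups alone, where Kif22 had an adjusted p of 0.0734, and the transport count from 1 to 2 with probe sets averaged or dim genes left out, Kif16b being called lower. Differences of genotype effects between 4 h and 0 h went from 2 to 1 with probe sets averaged or every probe set tested, Kif3a being lost. Kinesins called between wild-type CD8 and CD4 cells went from 3 to 5 with array weights. The cause of these changes was not tested.

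With 1 array left out at a time, the counts for genotype in unstimulated CD4, stimulated CD4 and CD8 cells ranged from 1 to 2, 0 to 1 and 1 to 3 for mitotic and from 1 to 1, 1 to 2 and 1 to 2 for transport kinesins. For stimulation in wild-type and deficient cells they ranged from 3 to 3 and 2 to 4 for mitotic and from 7 to 8 and 5 to 6 for transport kinesins. The differences of effects ranged from 0 to 2 (4 h against 0 h) and 0 to 0 (CD8 against CD4), and the lineage comparisons from 1 to 2 in wild-type and 1 to 3 in deficient cells. Calls lost with probe sets averaged were those of Kif3b in both genotypes and of Kif18a and Kif24 in deficient cells after stimulation. Calls gained there for stimulation were those of Kif11 in both genotypes and of Kif2a and Kif5c in wild-type cells. Most mitotic kinesins sit near the table median, where small true changes may not show. The labels give no shared replicate numbers, but the titles of the stimulated CD4 samples carry the number after that of an unstimulated one. Deviations from the group means of such pairs correlated at 0.0301 to 0.0769 over genes, below the 0.1 taken as pairing, although 6 of 6 unstimulated and 5 of 6 stimulated arrays correlated best with their neighbour. With these 6 pairs as a replicate block, an alternative chosen after seeing the data, 3 mitotic kinesins were called for stimulation in each genotype, 9 transport kinesins in wild-type (Kif5c being added) and 5 in deficient cells, and 2 differences of effects, and no call of a named kinesin was lost.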
